A study of Mus musculus with 6 samples.

Results

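The proteasome is the cell's main protease for ubiquitin-tagged proteins. Its 20S core is a barrel of alpha rings around beta rings, and only the beta subunits Psmb5, Psmb6 and Psmb7 cut. After interferon-gamma, cells make Psmb8, Psmb9 and Psmb10, which replace Psmb5, Psmb6 and Psmb7 respectively in newly built cores, the immunoproteasome, and shift the cut peptides towards those that MHC class I presents. Psme1 and Psme2 form PA28, a ring that caps the core and is also interferon-inducible, and the 19S cap of Psmc ATPases and Psmd subunits takes in ubiquitin-tagged protein. In colon, myeloid cells and T cells carry immunoproteasome as a matter of course, and epithelial cells make more of it during inflammation.

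The genes described here are the 45 genes, of 32285 counted, whose mouse symbol begins with Psma, Psmb, Psmc, Psmd or Psme and a number; none of the 4 annotated pseudogenes of these families was in the count tables. By role they are 7 alpha subunits of the core, 3 immunoproteasome beta subunits (Psmb8, Psmb9, Psmb10), the 3 standard beta subunits they replace (Psmb5, Psmb6, Psmb7), 4 other beta subunits, 6 ATPases and 11 other subunits of the 19S cap, 3 chaperones that assemble the cap (Psmd5, Psmd9, Psmd10), the 2 PA28 genes, and 2 other activators, Psme3 and Psme4. Of the remaining genes, Psma8 belongs to the testis and Psmb11 to the thymus, Psme2b is a near copy of Psme2 with which it may share reads, so that its values are uncertain, and Psmc3ip is a recombination protein that matches by symbol only. Psma8 stayed at or under 1.90 CPM, a gene's UMIs (unique molecular identifiers, each 1 captured RNA molecule) scaled to the total UMIs of the cells summed, and Psmb11 at or under 0.144 CPM in every cell class of every library.

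The study sequenced single cells from mouse colon after transplantation, with 1 library per group and 6 libraries in all, so no difference below has a replicate check. The BM library holds macrophages of mice given bone marrow alone, and the GVHD library those of mice that also received spleen cells, which bring graft versus host disease (GVHD); both were sorted as donor-derived CD11b+ CD64+ cells. The WT and IL34-/- macrophage libraries come from the same sort in wild-type recipients and in recipients that lack interleukin-34, a ligand of the receptor CSF-1R, and the WT and IL34-/- T-cell libraries from donor-derived T cells sorted from such recipients. Strain, age, donor cells and the number of animals pooled in a library are not given in the labels, and neither is which of the 5′ and 3′ kits named made which library. Intervals given below are exact 95% intervals that cover counting error only, not the spread between mice.

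Il34 itself, as a check of the labels, was not lower per UMI sequenced in either library labelled IL34KO. It had 186 UMIs over all barcodes of the WT macrophage library (1.76 CPM) and 242 in the library labelled IL34KO macrophage (2.30 CPM), and 135 (1.18 CPM) and 131 (1.55 CPM) in the T-cell libraries. The labels do not say which part of the gene was deleted, so these counts do not settle the genotype, and both are called the libraries labelled IL34KO throughout.

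Libraries held 43660889 (BM) to 114425913 (WT T-cell) UMIs. Cells were assigned to a myeloid, a T or an epithelial gate by 10 markers each, and the gates kept 72.8% to 92.4% of the cells that passed the filters. The myeloid gate was the largest in all 6 libraries, the T-cell libraries included, where 7555 (WT) and 4295 (labelled IL34KO) myeloid-gated cells stood against 2155 and 1373 T-gated cells, so the T-cell label does not describe most of their cells. Epithelial cells were too few for use in the BM and GVHD libraries (11 and 33) and numbered 169 to 657 in the others. All 10 T markers were found in the T gate of every library at a summed 5177 to 6558 CPM, against 4.84 to 17.7 CPM in the myeloid gate; the myeloid markers summed to 13593 to 24609 CPM in the myeloid gate, to 122 to 509 CPM in the T gate and to 244 to 296 CPM in the epithelial gate. The 6 fibroblast markers summed to 293 and 339 CPM in the T gates of BM and GVHD, with none at 0, and to at most 17.5 CPM in the T gates of the other libraries. In the myeloid gates they summed to 93.1 CPM in BM, 13.7 CPM in GVHD and 8.39 to 39.5 CPM in the others. The 5 endothelial markers summed to 63.7, 26.9 and 31.7 to 41.7 CPM there. The BM and GVHD libraries share 2502 cell barcodes, 42.6% of the BM barcodes, and 2486 of them had more UMIs in GVHD; other library pairs share 5 to 75. The BM cells with such barcodes (2027 of 4378) were left out, and values with them kept in are given beside the results on the BM library.

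**Figure D1:**
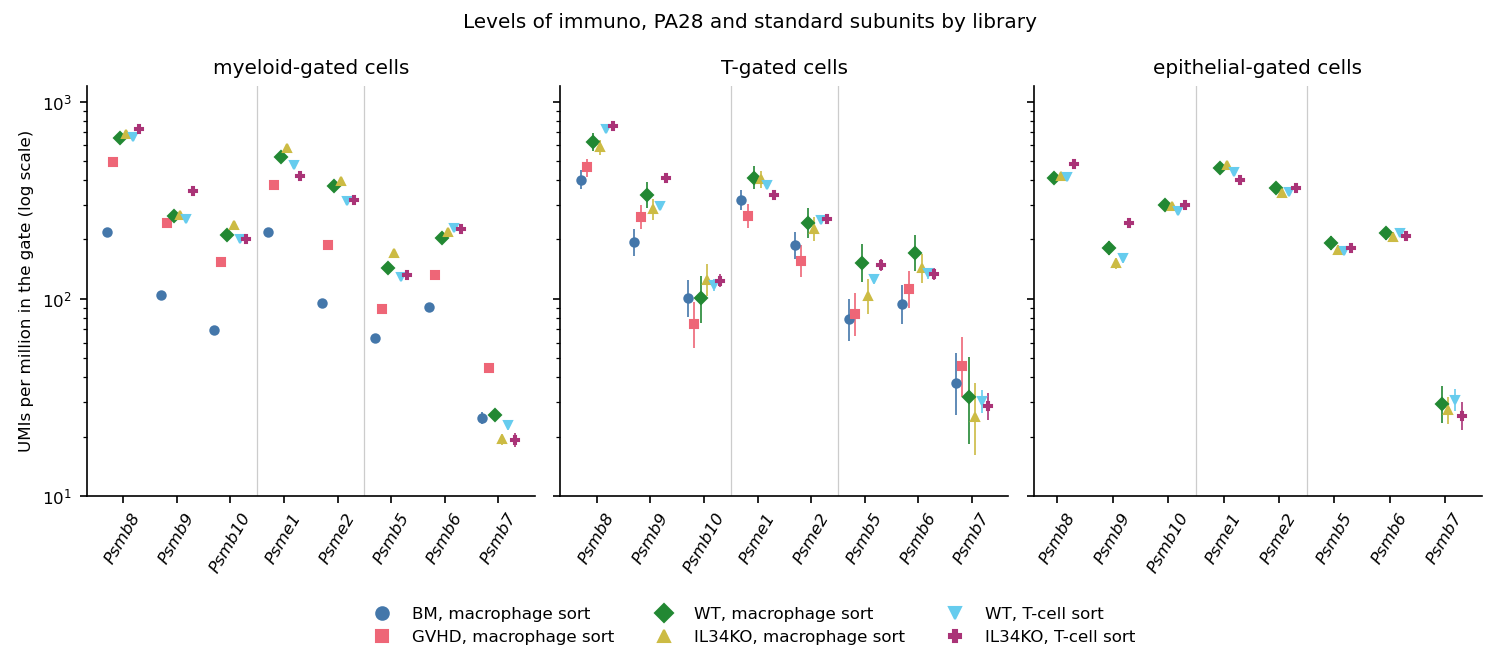
Level of 8 subunits in CPM (log axis) in each library, with one panel per gate; points are libraries with their exact 95% Poisson interval. In the myeloid panel the BM library is lowest for all 8 genes except Psmb7, and in the epithelial panel Psmb10 lies between 280 and 299 CPM, above its T-gate levels of 74.6 to 125 CPM.

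Psmb8, the immunoproteasome counterpart of Psmb5, had its widest range in myeloid cells. Its level there was 218 CPM in BM, 491 in GVHD, 652 in WT macrophage, 687 in the library labelled IL34KO macrophage, 659 in WT T-cell and 726 in the library labelled IL34KO T-cell. BM stood alone at the low end, and GVHD was the next lowest. In T cells the same libraries gave 402, 463, 624, 586, 729 and 752 CPM, and in epithelial cells the 4 usable libraries gave 408, 421, 414 and 483 CPM.

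Psmb9, which takes the place of Psmb6, followed the same order in myeloid cells at its ends: 105 CPM in BM, 243 in GVHD, 263 in WT macrophage, 267 in the library labelled IL34KO macrophage, 253 in WT T-cell and 352 in the library labelled IL34KO T-cell. The last of these was the highest of the 6, as it was in T cells (194, 260.5, 337, 285, 295 and 412 CPM in the same order) and in epithelial cells (181, 151, 161 and 243 CPM from WT macrophage on). Psmb10, the counterpart of Psmb7, ran from 69.7 CPM in BM and 153 in GVHD to 211, 236, 201 and 200.5 in the other myeloid cells. Its epithelial levels were higher, at 299, 296, 280 and 298 CPM, and its T-cell levels lower in every library but BM, at 101, 74.6, 101, 125, 118 and 123 CPM.

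The PA28 genes were lowest in BM myeloid cells as well. Psme1 measured 219 CPM in BM, 379 in GVHD, 523 in WT macrophage, 585 in the library labelled IL34KO macrophage, 478 in WT T-cell and 418 in the library labelled IL34KO T-cell. Psme2 measured 95.7, 188, 373, 397, 312 and 318 CPM in the same libraries. In T cells Psme1 measured 264 to 412 CPM and Psme2 156 to 254 CPM, both with an interval below their own library's myeloid level in 5 of 6 libraries, BM being the exception. Psme1 in epithelial cells lay between 398 and 478 CPM and Psme2 between 342 and 364 CPM; the T-cell level of Psme2 was 0.662 to 0.718 of the epithelial level, with an interval below 1 in 4 of 4 libraries.

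Among the standard catalytic subunits, Psmb5 measured 63.5, 89.1, 144, 170, 128 and 131 CPM in the myeloid cells of the 6 libraries and Psmb6 measured 90.6, 132, 204, 219, 229 and 225 CPM, again with BM lowest and GVHD next. Psmb7 had another order: it was highest in GVHD at 44.5 CPM, against 24.9 CPM in BM and 19.2 to 25.6 CPM in the other 4 libraries. In T cells Psmb5 ranged from 78.6 to 153 CPM, Psmb6 from 93.9 to 171 CPM and Psmb7 from 25.2 to 45.8 CPM, and in epithelial cells from 175 to 192, 205 to 216 and 25.5 to 30.8 CPM. All members together took 0.348% of myeloid UMIs in BM, 0.514% in GVHD and 0.602% to 0.675% in the other libraries.

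The stretches just before the start sites of Psmb8, Psmb9, Psmb5 and Psmb6 are shown because these 2 pairs exchange places in the core and moved by different amounts in the comparisons below. Each is the 160 bases upstream of the RefSeq start on GRCm38.p6, 5′ to 3′ on the gene's strand, at chr17:34198035-34198194 (plus) for Psmb8, chr17:34187331-34187490 (minus) for Psmb9, chr14:54617996-54618155 (minus) for Psmb5 and chr11:70525197-70525356 (plus) for Psmb6. The annotation used for gene positions further below puts Psmb8 at chr17:34197721-34201454, Psmb9 at chr17:34181987-34187764 and Psmb5 at chr14:54614119-54618022. By it the Psmb8 and Psmb9 stretches lie inside those genes, and the Psmb5 stretch in part, so they are upstream of the RefSeq start only. Capitals mark a match to TTCNNNGAA (the gamma-activated sequence, GAS) in Psmb8 and to TGACNNNGC (the antioxidant response element, ARE) in Psmb5 and Psmb6.
Psmb8: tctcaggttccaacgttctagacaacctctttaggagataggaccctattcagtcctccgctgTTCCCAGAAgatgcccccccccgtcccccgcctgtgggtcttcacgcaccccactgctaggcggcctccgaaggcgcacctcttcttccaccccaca
Psmb9: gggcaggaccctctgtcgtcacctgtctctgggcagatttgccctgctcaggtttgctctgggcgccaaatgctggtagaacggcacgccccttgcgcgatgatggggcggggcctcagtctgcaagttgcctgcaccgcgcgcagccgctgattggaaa
Psmb5: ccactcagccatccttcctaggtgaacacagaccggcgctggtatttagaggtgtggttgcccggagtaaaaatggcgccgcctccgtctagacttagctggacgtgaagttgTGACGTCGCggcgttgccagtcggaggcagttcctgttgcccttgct
Psmb6: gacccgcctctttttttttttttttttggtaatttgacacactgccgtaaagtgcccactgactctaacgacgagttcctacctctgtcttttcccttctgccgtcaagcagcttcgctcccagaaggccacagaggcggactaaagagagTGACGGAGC

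In a window of 250 bases before the start, read on both strands, TTCNNNGAA was present in 1 of the 38 members with an entry (Psmb8, 97 to 89 bases upstream) and in 7.18% of 27025 promoters. GAAA, any 2 bases and GAAA again, a form of the interferon-stimulated response element, was in 3 of 38 (Psmb3, Psmd4, Psmd9) and in 3.04% of all. TGACNNNGC was in 5 of 38 (Psmb5 at 47 to 39 and Psmb6 at 9 to 1 bases upstream, Psmc6, Psmd9, Psmd12) and in 10.1% of all, and CCAAT was in 15 of 38 and in 34.5% of all. The matches printed in capitals do not overlap a match to another of these motifs. These are matches of letters before the RefSeq start, not measured binding sites.

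Myeloid cells of the GVHD library had more of nearly every core subunit, and most of all of the immunoproteasome subunits, than those of the BM library. Of the 42 members measured (at least 5 CPM in 1 of the libraries compared), 12 were at least 1.5-fold higher in GVHD and 0 lower, where 15.3% of 9876 genes were that much higher and 19.3% lower. The counting interval lay above 1 for 33 members (39.2% of all genes) and below 1 for 2 (41.1% of all genes), the 19S subunits Psmd1 (0.912-fold) and Psmd11 (0.932-fold). The median log2 ratio was 0.42 over the members and -0.01 over all genes. With 1 library a group, these are differences between libraries, not tested differences between treatments.

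**Figure D2:**
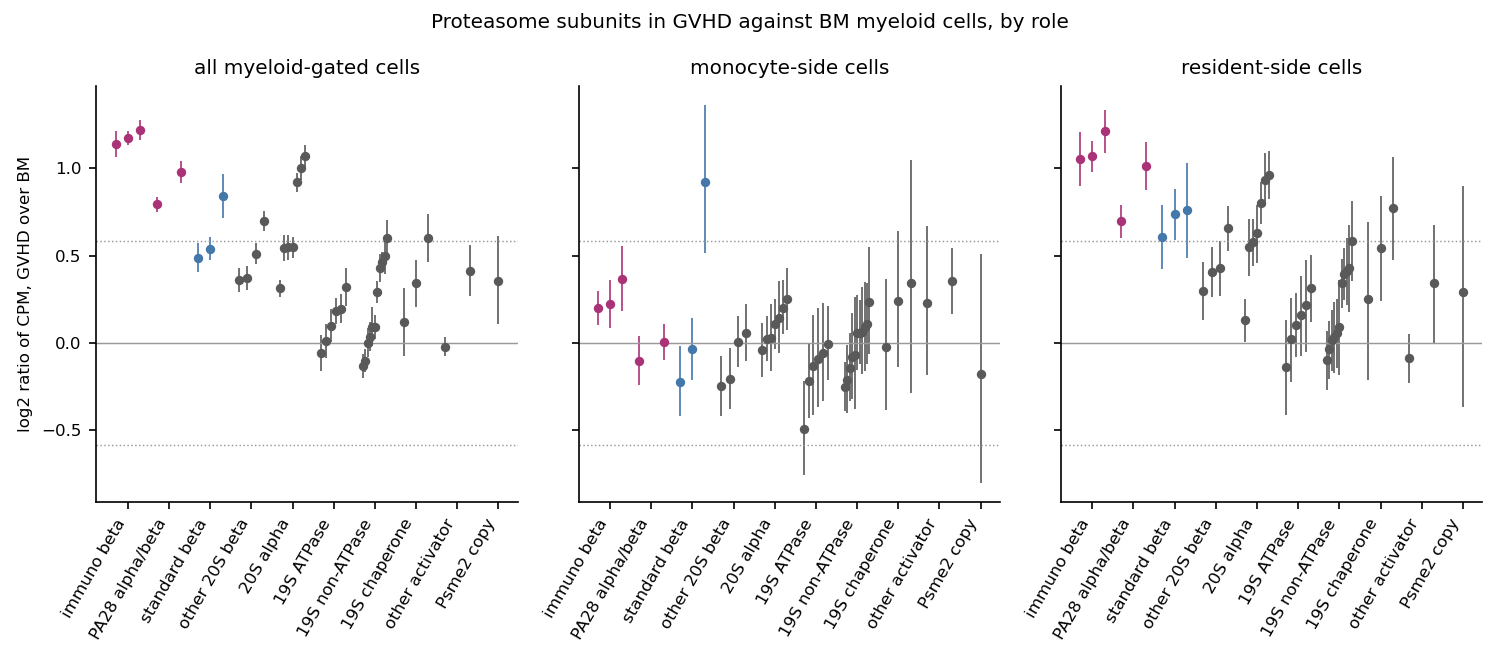
Log2 ratio of GVHD to BM CPM in myeloid-gated cells for each measured subunit, grouped by role, in all myeloid-gated, monocyte-side and resident-side cells; points are genes with their exact 95% interval and dotted lines mark 1.5-fold. With all cells the 3 immunoproteasome beta subunits are highest, and in monocyte-side cells Psmb7 alone passes 1.5-fold.

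The immunoproteasome beta subunits led: Psmb9 was 2.33-fold higher in GVHD (interval 2.23 to 2.43), Psmb8 2.26-fold (2.19 to 2.32) and Psmb10 2.20-fold (2.09 to 2.32). Of the PA28 genes, Psme2 was 1.97-fold (1.88 to 2.06) and Psme1 1.73-fold (1.68 to 1.79) higher. The standard beta subunits differed less, with Psmb7 at 1.79-fold (1.64 to 1.95), Psmb6 at 1.45-fold and Psmb5 at 1.40-fold. In the alpha ring Psma4 (2.10-fold), Psma5 (2.00-fold) and Psma7 (1.89-fold) passed 1.5-fold, and all 7 alpha subunits had an interval above 1, with a median log2 ratio of 0.55. Outside these groups Psmb1 (1.62-fold), the 19S subunit Psmd13 and the chaperone Psmd10 (1.52-fold each) completed the 12. The 19S cap differed least: its 6 ATPases had a median log2 ratio of 0.14 and its 11 other subunits of 0.09. Without the 5 immunoproteasome and PA28 genes, 7 of 37 members were at least 1.5-fold higher and their median was 0.36.

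The balance between the alternative catalytic subunits also differed. Psmb8, Psmb9 and Psmb10 together made up 68.7% of the UMIs of the 6 catalytic genes in BM myeloid cells and 77.0% in GVHD, an odds ratio of 1.53 (1.47 to 1.59). By pair the odds ratio was 1.61 for Psmb8 to Psmb5, 1.60 for Psmb9 to Psmb6 and 1.23 (1.11 to 1.36) for Psmb10 to Psmb7, and it was 1.36 for the PA28 genes to Psme3, the PA28 form of the nucleus. A share of UMIs depends on how well each transcript is captured, so only its difference between libraries or gates is read. Taking a difference removes capture only where the kit is the same, and which kit made which library is not given. The part of the kit in differences between libraries, of shares or of levels, was not tested. With the shared barcodes kept in BM, the pooled log2 odds ratio was 0.47 in place of 0.61, and 9 members in place of 12 were at least 1.5-fold higher and 0 lower (11.7% and 16.7% of genes).

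The makeup of the myeloid gate moved with this difference. Of the BM myeloid cells, 151 had a UMI of more monocyte than resident-macrophage markers and 1718 the reverse; in GVHD the numbers were 1604 and 245. The 7 monocyte markers summed to 325 CPM in BM and 1451 CPM in GVHD and the 7 resident markers to 1811 and 590 CPM, with none of either list at 0. The monocyte list is not particular to monocytes. Over all libraries used, it summed to 625 to 797 CPM in T gates and 899 to 1897 CPM in epithelial gates. The resident list summed to 236 to 430 CPM and 90.6 to 108 CPM there. Between monocyte-side cells alone, 1 member was at least 1.5-fold higher in GVHD (Psmb7, 1.90-fold) and 0 lower, where 11.7% of genes were higher and 12.5% lower. The median log2 ratio was 0.01, Psmb8, Psmb9 and Psmb10 were at 0.20, 0.22 and 0.37, and the odds ratio was 1.16 (1.05 to 1.28). Between resident-side cells alone, 15 members were at least 1.5-fold higher and 0 lower, where 16.4% of genes were higher and 19.2% lower. The median was 0.41, Psmb9 was 2.32-fold, Psmb8 2.10-fold, Psmb10 2.08-fold, Psme2 2.02-fold and Psme1 1.62-fold higher, and the odds ratio was 1.33. For Psmb8 this means 435 CPM in monocyte-side and 193 in resident-side cells of BM against 498 and 405 in GVHD: the resident-side cells of BM were the ones apart. With the shared barcodes kept, BM had 1161 monocyte-side and 2054 resident-side cells. Psmb8, Psmb9 and Psmb10 were then at log2 ratios of 0.05, -0.01 and 0.18 between monocyte-side cells, and Psmb9 was 2.21-fold and Psmb8 2.00-fold higher between resident-side cells.

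Within every library, the monocyte-side cells had more immunoproteasome transcript than the resident-side cells. Psmb8, Psmb9, Psmb10, Psme1 and Psme2 each had an interval above 1 in 6 of 6 libraries, with log2 ratios of 0.30 to 1.17 for Psmb8, 0.20 to 1.20 for Psmb9, 0.25 to 0.93 for Psmb10, 0.24 to 0.93 for Psme1 and 0.21 to 1.32 for Psme2. The other members had medians of 0.07 to 0.42. Of the standard subunits, Psmb5 (0.01 to 0.84) had an interval above 1 in 5 of 6 libraries, Psmb6 (-0.09 to 0.68) in 4 of 6 and Psmb7 in 0 of 6. The difference was not always larger for the immunoproteasome: in WT T-cell Psmb5 stood at 0.68 and Psmb8 at 0.33, and the pooled immunoproteasome share was 73.8% on the monocyte side and 76.1% on the resident side. In the library labelled IL34KO T-cell it was 77.0% and 77.9%. With the shared barcodes kept, the BM values were 1.25 for Psmb8, 1.36 for Psmb9, 1.06 for Psmb10 and 0.76 for Psmb5. Psmb8 in monocyte- and resident-side cells was 677 and 491 CPM in WT macrophage, 702 and 518 in the library labelled IL34KO macrophage, 705 and 562 in WT T-cell and 773 and 623 in the library labelled IL34KO T-cell.

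Genes around the immunoproteasome in the same myeloid cells were counted by list. Of 10 measured genes of interferon-gamma signalling, 4 were at least 1.5-fold higher in GVHD and 0 lower, where 15.3% of all genes were higher and 19.3% lower. Among the 4 were the feedback inhibitor Socs1 (2.36-fold), Irf1, a transcription factor that drives immunoproteasome genes (1.77-fold), and the kinase Jak2 (1.51-fold). Nlrc5, the transactivator of class I genes, was 1.29-fold higher. The receptor gene Ifngr2 (0.781-fold), the kinase gene Jak1 (0.785-fold) and the transcription factor gene Irf8 (0.903-fold) had intervals below 1. Of 9 genes for loading class I molecules, 4 were higher and 0 lower, the peptide transporter genes Tap1 (2.37-fold) and Tap2 (1.90-fold) and the editors Tapbpl (1.88-fold) and Tapbp (1.74-fold). B2m, the class I light chain, was 1.39-fold higher.

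Against the same 15.3% and 19.3%, of 5 assembly factors 2 were higher, Psmg4 (1.73-fold) and Pomp (1.56-fold), which helps to build the core, and of 11 ubiquitin receptors and deubiquitinases 1, the cap component Sem1 (1.52-fold). Of 7 genes of the response by which cells replace inhibited proteasome, 0 were that far apart, and its transcription factor Nfe2l1 was 1.31-fold higher. Of 5 ubiquitin genes 1 was higher, Rps27a (1.80-fold), which encodes ubiquitin fused to a ribosomal protein, and 2 were lower, among them the polyubiquitin gene Ubb (0.618-fold).

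T cells of the same BM and GVHD libraries were few, 124 and 145 cells, and none of their immunoproteasome or PA28 genes was 1.5-fold apart. Of 43 members measured, 7 were at least 1.5-fold higher and 1 lower, where 23.4% of 10995 genes were higher and 16.3% lower. Those with at least 50 UMIs in a library were the alpha subunits Psma1 (1.63-fold), Psma6 (1.68-fold) and Psma7 (1.54-fold) and the 19S subunit Psmd12 (2.04-fold). Of the 5 immunoproteasome and PA28 genes, Psmb9 was 1.35-fold (1.09 to 1.66), Psmb8 1.15-fold (0.990 to 1.34), Psme1 0.832-fold, Psme2 0.830-fold and Psmb10 0.739-fold (0.520 to 1.05). The pooled odds ratio was 0.994 (0.780 to 1.27), an interval that ends below the 1.53 of the myeloid cells; the difference itself was not tested. With the shared barcodes kept, 144 BM cells gave 6 members higher and 1 lower (24.2% and 16.2% of genes), Psmb9 at 1.35-fold and a pooled odds ratio of 0.997. Fibroblast markers stood at 293 and 339 CPM in these T cells of BM and GVHD, and their part in the values was not tested.

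**Figure D3:**
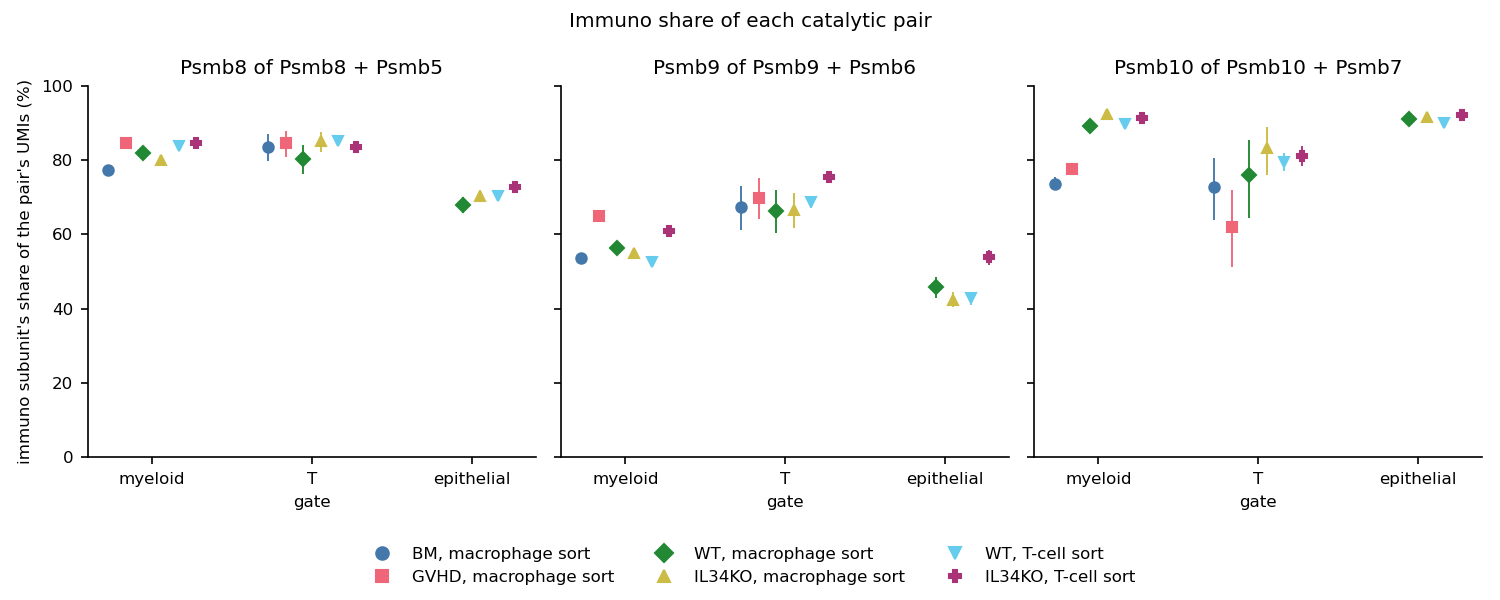
Share of UMIs (%) taken by the immunoproteasome member of each catalytic pair, by gate; points are libraries with exact 95% intervals. Epithelial cells are lowest for Psmb8 (68.0% to 72.7%), while for Psmb10 they lie at 90.1% to 92.1% and T cells at 62.0% to 83.2%.

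Cell classes were compared within each library, which removes differences between libraries. By CPM, epithelial cells had less Psmb8 and Psmb9 and more Psmb10 than the immune cells beside them. The median log2 ratio of all genes was -0.54 to -0.43 for myeloid against epithelial cells. It was -0.07 to 0.06 for T against epithelial cells and 0.34 to 0.49 for T against myeloid cells. Psmb10 in myeloid against epithelial cells, at log2 ratios of -0.57 to -0.32, lay around that median of all genes. Other scalings were not run between cell classes. Psmb8 was at least 1.5-fold and up to 1.63-fold higher in myeloid than in epithelial cells of the 4 usable libraries, and Psmb9 was 1.45- to 1.77-fold higher. In T cells Psmb9 was 1.70- to 1.89-fold and Psmb8 1.39- to 1.76-fold higher than in epithelial cells. Psmb10 was 0.336 to 0.422 of its epithelial level in T cells and 0.672 to 0.799 of it in myeloid cells, with an interval below 1 in 4 of 4 libraries each.

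Pooled over the 3 pairs, the immunoproteasome subunits took 67.0% to 71.1% of UMIs in epithelial, 68.7% to 77.3% in myeloid and 74.9% to 80.6% in T cells. By pair, Psmb8 took 68.0% to 72.7% of the Psmb8 and Psmb5 UMIs in epithelial cells, 77.4% to 84.7% in myeloid cells and 80.3% to 85.3% in T cells. Psmb9 took 42.5% to 53.8% of the Psmb9 and Psmb6 UMIs in epithelial, 52.5% to 64.9% in myeloid and 66.3% to 75.5% in T cells. In the third pair Psmb10 took 90.1% to 92.1% in epithelial, 73.7% to 92.4% in myeloid and 62.0% to 83.2% in T cells; the low myeloid end is BM, which has no usable epithelial cells. Between myeloid and epithelial cells of the same library the odds for Psmb10 over Psmb7 differed by a ratio of 0.806 to 1.13, with an interval that includes 1 in 4 of 4 libraries. Within a library the odds for Psmb10 over Psmb7 in T cells were 0.310 to 0.457 of the epithelial odds, while those for Psmb9 over Psmb6 were 2.33 to 2.94 times as large.

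Some 19S subunits were at least 1.5-fold apart between classes in every usable library. Of 42 members, 4 were lower and 2 higher in myeloid than in epithelial cells in all 4 libraries. In T against epithelial cells 3 were lower and 2 higher. The share of all genes apart in all 4 was not counted. In single libraries, 44.6% to 48.3% of genes were lower in myeloid and 34.6% to 37.1% in T cells, so lower genes were common. Psmd3 and Psmd7, both structural subunits of the 19S lid, were at least 1.5-fold lower in myeloid and in T cells than in epithelial cells in 4 of 4 libraries; Psmd7 in T cells was 0.380 to 0.468 of its epithelial level. The ATPases Psmc3 and Psmc5 were that much lower in myeloid cells in 4 of 4 libraries. The log2 ratios of myeloid to epithelial cells were -0.77 to -0.72 for Psmc3 and -1.09 to -0.74 for Psmc5. They were -0.95 to -0.68 for Psmd3 and -0.94 to -0.72 for Psmd7, where the median of all genes was -0.54 to -0.43. Psmd14, the deubiquitinase of the lid, was 1.53- to 1.90-fold higher in T than in epithelial cells. Members measured numbered 42 or 43 in each of these comparisons.

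Counts of members past 1.5-fold stood against a high background, since cell classes differ in many genes. In myeloid against epithelial cells, WT macrophage had 2 members higher and 6 lower, where 24.2% of genes were higher and 45.6% lower. The library labelled IL34KO macrophage had 3 and 4 (22.5% and 48.3% of genes), WT T-cell 3 and 9 (24.3% and 44.6%) and the library labelled IL34KO T-cell 2 and 12 (23.1% and 46.3%). In T against epithelial cells the counts were 4 higher and 10 lower in WT macrophage (33.3% and 35.1% of genes), 3 and 9 in the library labelled IL34KO macrophage (30.5% and 37.1%), 4 and 11 in WT T-cell (34.7% and 34.6%) and 4 and 6 in the library labelled IL34KO T-cell (34.5% and 35.3%).

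In T against myeloid cells, BM stood out with 12 members higher and 2 lower, where 40.8% of genes were higher and 26.2% lower (11 and 2, 40.6% and 26.0%, with the shared barcodes kept). The others had 4 and 2 in GVHD (45.7% and 22.6% of genes), 5 and 5 in WT macrophage (43.6% and 24.0%), 2 and 5 in the library labelled IL34KO macrophage (43.9% and 24.0%), 5 and 3 in WT T-cell (45.3% and 24.0%) and 5 and 3 in the library labelled IL34KO T-cell (46.6% and 23.6%). No member was at least 1.5-fold apart in the same direction in all 6; Psmb10 was that much lower in T cells in 5 of them and 1.45-fold higher in BM (1.26-fold with the shared barcodes kept).

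**Figure D4:**
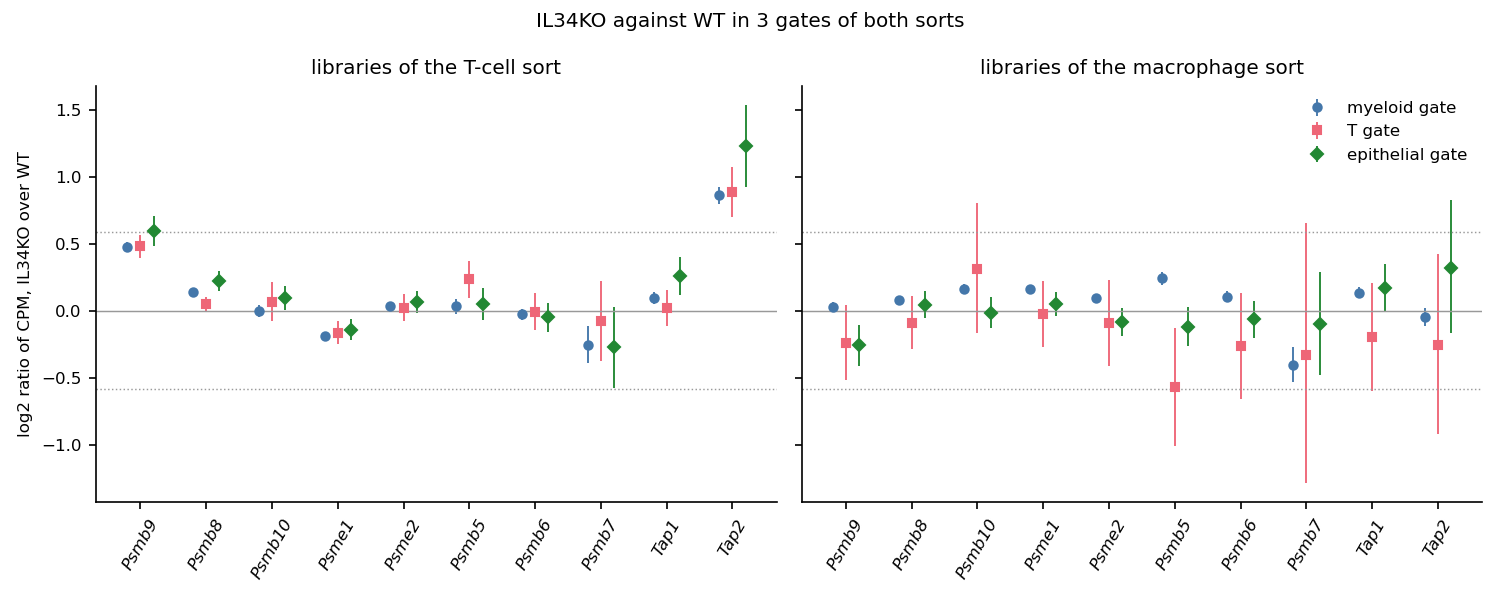
Log2 ratio of each library labelled IL34KO to its WT library for 8 subunits and the transporter genes Tap1 and Tap2, by gate, with a panel per sort; dotted lines mark 1.5-fold and points are ratios with exact 95% intervals. Psmb9 lies at 0.48 in T and myeloid cells and 0.59 in epithelial cells of the T-cell libraries, and between -0.26 and 0.02 in the 3 gates of the macrophage libraries.

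Loss of interleukin-34 in the recipient was the study's question for the other 4 libraries. In myeloid cells of the macrophage libraries, 0 of 42 members were at least 1.5-fold apart, where 1.07% of 9232 genes were higher and 1.92% lower in the library labelled IL34KO. Intervals lay above 1 for 25 members and below 1 for 4, where 22.5% of all genes lay above and 27.1% below. The largest were Psmb5, 1.18-fold higher, and Psmb7, at 0.756 of its WT level. The pooled odds ratio of immunoproteasome to standard subunits was 0.967 (0.944 to 0.990), and that of Psmb10 to Psmb7 was 1.48. In the same cells the 7 neutrophil markers summed to 2395 CPM in WT and 4867 CPM in the library labelled IL34KO, and the resident-macrophage markers to 403 and 216 CPM, with none at 0 in either list; their part in these differences was not tested. No gene of the 6 pathway lists was 1.5-fold apart.

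In T cells of the T-cell libraries, 0 of 43 members were at least 1.5-fold apart, where 2.79% of 9728 genes were higher and 1.64% lower. The member farthest from equal was Psmb9, 1.39-fold higher in the library labelled IL34KO (1.32 to 1.48; 295 and 412 CPM). Psme1 was 0.891 of its WT level, and the pooled odds ratio was 1.06 (0.984 to 1.13).

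Psmb9 differed by a like amount in the other cells of the same libraries. It was 1.39-fold higher (1.36 to 1.43) in myeloid cells, where 0 of 42 members passed 1.5-fold against 0.917% (higher) and 0.448% (lower) of 9159 genes. In epithelial cells it was 1.51-fold higher (1.40 to 1.63) and the 1 member of 42 past 1.5-fold, where 5.16% of 10398 genes were higher and 1.63% lower. In the epithelial cells of the macrophage libraries it was lower, at 0.835 of its WT level (0.751 to 0.930), with 0 of 42 members past 1.5-fold against 7.94% and 3.38% of 10577 genes. The T cells of the macrophage libraries, 87 and 183 in number, had 3 members higher and 1 lower of 42, where 16.2% of 10238 genes were higher and 14.1% lower. Those with at least 50 UMIs in a library were the ATPase Psmc1 and the activator Psme4 (log2 ratios 0.99 and 0.65) and the 19S subunit Psmd13 (-0.66), and Psmb9 stood at -0.24.

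Psmb8, the neighbour of Psmb9 on chromosome 17, was only slightly higher in the T-cell library labelled IL34KO, with log2 ratios of 0.14 in myeloid, 0.05 in T and 0.22 in epithelial cells, of which the T-cell value turned to -0.02 under TMM and -0.01 under median-of-ratios scaling. Of the genes for class I loading, Tap2 stood at 0.86, 0.88 and 1.23 in those gates, Tapbpl at 0.48, 0.39 and 0.62, B2m at 0.39, 0.32 and 0.41 and Tap1 at 0.09, 0.02 and 0.26. In the macrophage libraries Tap2 was at -0.05, -0.26 and 0.32. Psmb9 and Tap1 overlap on opposite strands, at chr17:34181987-34187764 (minus) and chr17:34187553-34197225 (plus). The sources used here do not say whether counting kept the strands apart, so reads in the overlap could fall to either gene.

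**Figure D5:**
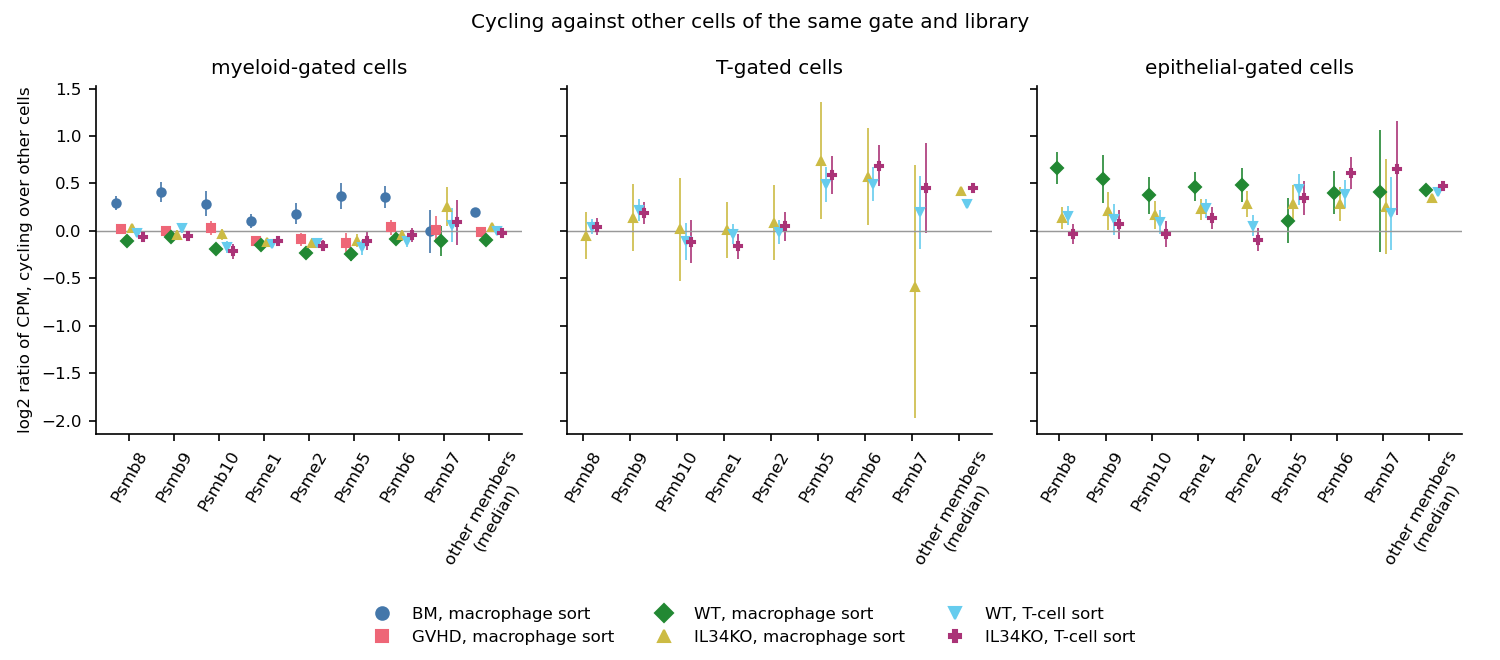
Log2 ratio of cycling to non-cycling cells within each library for the catalytic and PA28 genes and for the median of the other members, by gate; points are libraries. In T cells Psmb5 and Psmb6 lie at 0.49 to 0.74, and Psmb8 and Psmb10 between -0.11 and 0.05.

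Within libraries, cycling T cells had more of the standard subunits Psmb5 and Psmb6, while the immunoproteasome subunits differed less. A cell counted as cycling with at least 2 UMIs of 8 cycle genes. A cell is more likely to reach these the more UMIs it has. Depth was not matched between cycling and non-cycling cells, nor where cycling cells are left out below. In the 3 libraries with enough T cells, cycling T cells had more Psmb5 (log2 ratio 0.49 to 0.74) and Psmb6 (0.50 to 0.69), and the median of the other members was 0.29 to 0.45. Psmb8 (-0.05 to 0.05), Psmb10 (-0.11 to 0.02), Psme1 (-0.16 to 0.01) and Psme2 (-0.01 to 0.09) stayed near 0, and Psmb9 was at 0.14 to 0.22. Psmb7, with few UMIs, ranged from -0.60 to 0.45. In epithelial cells (4 libraries) the median of the other members was 0.34 to 0.47 and Psmb6 was at 0.28 to 0.61, but Psmb8 (-0.03 to 0.66) had an interval above 1 in 3 of 4 libraries, Psme1 (0.13 to 0.47) in 4 of 4 and Psmb5 (0.11 to 0.44) in 3 of 4. In myeloid cells (6 libraries) that median was -0.09 to 0.20, and Psmb5, Psme1 and Psme2 each had an interval below 1 in 5 of 6 libraries and above 1 in BM. With the shared barcodes kept, BM gave 0.27 for Psmb5, 0.12 for Psmb8 and -0.02 for Psme1, the last with an interval that includes no difference. Leaving cycling cells out of both groups, 18 members in place of 12 were at least 1.5-fold higher in GVHD than in BM myeloid cells and 0 lower, where 18.2% of genes were higher and 21.4% lower. Psmb9 was then 2.63-fold higher, and 2.01-fold with the shared barcodes kept as well.

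Cxcl9, a chemokine that interferon-gamma induces in macrophages, was used as a marker within the myeloid gate. Cells with a Cxcl9 UMI had more of all 5 genes than cells without in 6 of 6 libraries, with log2 ratios of 0.22 to 0.49 for Psmb8, 0.20 to 0.72 for Psmb9, 0.25 to 0.49 for Psmb10, 0.25 to 0.45 for Psme1 and 0.35 to 0.69 for Psme2. The median of the other members was 0.11 to 0.23. Psmb6 (0.18 to 0.43) had an interval above 1 in 6 of 6 libraries, Psmb5 (0.12 to 0.29) in 5 of 6 and Psmb7 in 0 of 6, so Psmb5 and Psmb6 overlapped the immunoproteasome range; in the library labelled IL34KO macrophage Psmb6 (0.43) exceeded Psmb9 (0.20). With the shared barcodes kept, the BM values were 0.70 for Psmb8 and 0.90 for Psmb9. A cell is more likely to show a Cxcl9 UMI the more UMIs it has, and depth was not matched between these cells. Between CD8 and CD4 T cells (3 libraries) no gene of the 8 went one way beyond counting error in all: Psme1 was at 0.14 to 0.21 with an interval above 1 in 2, and Psme2 at -0.41 to 0.11 with an interval below 1 in 2.

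Over the 16 library-by-gate points, 5877 genes with at least 20 CPM in enough points were ranked by Spearman's rho with the mean of Psmb8, Psmb9 and Psmb10. The points share libraries and depths, so rho is a description. The most alike were Tpgs1 (0.84), Derl2 (0.83), AY036118 (0.81), Msl1, Atg5 and Gapdh (0.79 each), Stx8 and Htatip2 (0.77 each), Napg (0.75), and Clic1 and Ubxn1 (0.74 each). The 38 members compared had a median rho of 0.28, against -0.07 for all genes. Of these 38, 30 had a rho above 0, among them Psmd10 (0.72), Psme2 (0.71), Psme1 (0.56) and the standard subunits Psmb6 (0.66) and Psmb5 (0.51). The third standard subunit, Psmb7 (-0.59), and Psme4 (-0.70) lay far to the other side.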

How the data were processed

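The deposited files hold raw UMI counts per gene and cell barcode, which the submitters made with Cell Ranger 7.0.1 on mm10, per the submitters' processing notes; filters beyond barcode calling are not given in the sources used here. No label says that replicate cultures or animals stand behind a library. A barcode was used if it had 500 genes or more and no more than 10% of its UMIs from mitochondrial genes. Scrublet in scanpy 1.11.5 called doublets, by its automatic threshold or, where that marked under 0.5% of cells, by the expected number at 0.8% per 1000 cells (4 macrophage libraries). A cell entered a gate with a UMI of at least 3 of its 10 markers. These also had to be at least 75% of the markers of all gates found in the cell. UMIs were summed per gate and library, points under 50 cells were left out, and levels are CPM of these sums. A gene was measured at 5 CPM or more in 1 of the libraries compared, and set apart at 1.5-fold. Intervals are exact (Poisson for levels, conditional binomial for ratios, Clopper-Pearson for shares, conditional for odds ratios), in SciPy 1.17.1 under Python 3.11.15. With 1 library per group no test was possible. Myeloid cells were put on the monocyte side (7 markers, such as Ly6c2 and Ccr2) or the resident side (7 markers, such as Cd163 and Mrc1) by which list had more markers with a UMI. Cycling was read from Mki67, Top2a, Birc5, Ccnb1, Cdk1, Pclaf, Rrm2 and Stmn1 (at least 2 UMIs). The ratio calculation was tested on simulated data, and the odds intervals were compared with those of SciPy on a few fixed tables of counts.

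Values in every library are given for the catalytic and PA28 subunits; other members are named where 1.5-fold apart with at least 50 UMIs, or at an end of their family, and between cell classes where apart in every usable library. Pathway genes are named if listed by a rule or among the farthest apart, with exceptions below. The members and lists were chosen with earlier results of these data known. Alternatives were 14 planned settings and 2 added after seeing the data, when keeping the shared barcodes was also extended to the other BM comparisons, with scaling factors from edgeR 4.0.16 and DESeq2 1.42.0 in R 4.3.3. Paaf1 was not used here, and some genes of the pathway lists, also among the farthest apart, are not reported here.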

Additional observations from a re-analysis of the deposited data

Results flagged for a closer look

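Values are given here where the same contrast, the library labelled IL34KO against WT, lay on opposite sides of 1 beyond counting error in a pair of cell classes or sorts. This held for 9 of 120 values over 10 pairs of comparisons, and in each the difference itself was not tested, since a group is 1 library.

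In myeloid cells, the log2 ratio in the macrophage libraries minus that in the T-cell libraries was 0.35 for Psme1 (0.16 and -0.19). For the log2 odds ratios it was -0.27 for Psmb8 over Psmb5 (-0.17 and 0.11), -0.58 for Psmb9 over Psmb6 (-0.08 and 0.50) and -0.27 for the 3 pairs pooled (-0.05 and 0.22). In epithelial cells the same difference for Psmb9 was -0.85 (-0.26 and 0.59).

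Psmb5 in the macrophage libraries differed by 0.81 between myeloid and T cells (0.24 and -0.57), and in T cells by 0.80 between the T-cell and the macrophage libraries (0.23 and -0.57). The value of -0.57 rests on 87 and 183 cells. In the T-cell libraries the odds of Psmb8 over Psmb5 differed by -0.29 between T and myeloid cells (-0.19 and 0.11) and by -0.36 between T and epithelial cells (-0.19 and 0.17).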

How the results depend on the processing

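Of the values for single subunits under the alternatives, 269 differed from the main value by less than its counting interval, 61 by more, and 6 changed sign where the main interval lay to 1 side of no difference. A further 9, counted among those 269 and 61, changed sign where it did not, such as Psmb8 in T cells of the T-cell libraries (0.05, and -0.02 under TMM scaling). The 269 include every value under no expression floor and under a floor of 20 CPM. Those could not differ, since a floor does not enter the ratio of a single gene. In GVHD against BM myeloid cells, TMM scaling gave 19 members at least 1.5-fold higher and monocyte-side cells alone 1, in place of 12; TMM moved the median of all genes from -0.01 to 0.11. The pooled log2 odds ratio of immunoproteasome to standard subunits, 0.61, was 0.75 with cells thinned to 2000 UMIs, 0.71 without cells carrying markers of other types, 0.47 with the shared barcodes kept, 0.22 in monocyte-side and 0.41 in resident-side cells alone. In monocyte-side cells the log2 ratios of Psme2 (-0.10), Psmb5 (-0.22) and Psmb6 (-0.0373) changed sign. The split into sides was added after seeing the data. Between the library labelled IL34KO and WT in myeloid cells of the macrophage libraries, that odds ratio, -0.05 on the log2 scale, was -0.00937 with the stricter gate, -0.00616 without cells carrying markers of other types and 0.12 in resident-side cells alone, where Psmb10 (-0.0100), Psme2 (-0.11) and Psmb6 (-0.18) also changed sign. No expression floor, and leaving out cells with markers of other types, each gave 1 member lower in place of 0. In T cells of the T-cell libraries the stricter gate gave 2 members higher and 1 lower, no floor 2 higher, and thinning 1 higher and 1 lower, in place of 0 each, and thinning gave a log2 odds ratio of 0.31 in place of 0.08. For these the cause was not tested. No paired analysis was possible because each group is 1 library, which also leaves no replicate to leave out; T cells of the macrophage libraries are limited by their 87 to 183 cells.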

Other observations

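The neighbourhood of Psmb9 in the mouse MHC region was looked at after its values were seen. Within 100 kb on each side, 9 genes reached 5 CPM in every gate of both sorts. Tap2, at chr17:34203527-34216321, had 70.7 CPM in WT and 128 CPM in the library labelled IL34KO in myeloid cells, 53.8 and 99.2 CPM in T cells and 18.2 and 42.6 CPM in epithelial cells. Psmb8, at chr17:34197721-34201454 between Tap1 and Tap2, had 659 and 726 CPM in myeloid cells, and Tap1 195 and 208 CPM. The class II genes H2-Ab1 and H2-Aa had log2 ratios of 0.19 and 0.16 in myeloid cells and of -0.49 and -0.53 in T cells. Their levels were 67.7 to 106 CPM in these T cells and 3831 to 5850 CPM in the myeloid cells. Myeloid markers summed to 509 (WT) and 404 CPM (labelled IL34KO) in the same T cells, and their part in the T-cell values was not tested. Psmb9 was at least 1.39-fold higher in all 3 gates, as were 49 of 7521 genes measured in all of them (0.652%). Psmb9 is among the 49 by construction, since the cut is its own smallest ratio. Tap2 and the class I genes H2-D1, H2-T23 and H2-T22 were also among them. The others included Il1rapl1 (log2 ratios 1.98 to 2.51), Rpa3 (1.37 to 1.54) and Irgm1 (0.93 to 1.02). Rnf5 (at least 1.02 in each gate), Rnaset2a, Rnaset2b and Sft2d1 were among them too. How many of the 49 lie on the chromosome of Psmb9 was not counted, and an effect of its region was not tested.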
